A study of Mus musculus with 36 samples.

Results

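Slc2a4, Hk2, Ppp1r3c, Pygm, Pfkm, Aldoa, Eno3, Pgam2, Ldha and Ldhb carry glucose from the blood into the muscle fibre, store it as glycogen and break it down to lactate. These 10 genes were chosen by name, and every probe set annotated to them was taken, which gave 14 of the 12488 probe sets of the array. For each gene the text follows the brightest of its probe sets. All 10 of these passed the filter on low signals, as did a second Aldoa probe set, which made 11 of the 14. The other probe sets of Hk2, Slc2a4 and Ldhb did not pass and lay at the signal floor of 118 on 30, 14 and 29 of 34 arrays.

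RNA of 6 skeletal muscles was measured in C57BL10 mice, the controls, and in mdx and mdx5cv mice, whose Dmd mutations remove the fibre protein dystrophin. The muscles sampled were soleus, EDL (extensor digitorum longus), TA (tibialis anterior), quadriceps, gastroc (gastrocnemius) and diaphragm. Every mouse was an 8-week-old male, and each sample was RNA pooled from 5 mice of a strain, so the spread between mice was not measured. The labels name no treatment, give no genetic background for the mutants and do not say whether both samples of a group came from separate pools, so the p-values measure only the spread between these samples. The 18 combinations of strain and muscle held 2 arrays apiece, except mdx gastroc and mdx5cv gastroc with 1 array each, after columns identical to quadriceps columns had been left out. Which label of these columns is right is not known, so mdx quadriceps sample 2 and mdx5cv quadriceps sample 1 may be gastroc. This left 12 C57BL10, 11 mdx and 11 mdx5cv arrays. All signals are the authors' linear, array-scaled intensities, and all differences are log2 values ± the standard error of limma, with p-values adjusted over 7453 tested probe sets.

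In skeletal muscle, insulin and contraction bring the transporter GLUT4 to the surface of the fibre, and hexokinase then traps the incoming glucose as glucose 6-phosphate. This is built into glycogen or passed down glycolysis to pyruvate. Fast-twitch fibres hold much glycogen and large amounts of the glycolytic enzymes, while slow-twitch fibres burn more of their fuel in mitochondria and carry more of the heart-type lactate dehydrogenase subunit.

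The stretch of 250 bases before the RefSeq start site (GRCm38.p6) is shown for Ppp1r3c and Ldhb, which were lower in both mutants, for Hk2, which was lower in mdx5cv, and for Pgam2, which did not pass in either. The sequences run 5′ to 3′ on the strand of the gene, and capitals mark the motifs searched for: the E-box (CANNTG), the GC box (GGGCGG), the core of hypoxia response elements (ACGTG), the core of cyclic AMP response elements (TGACG), the TATA box (TATAAA) and the MEF2 motif, on both strands.
Hk2, chr6:82774455-82774704, minus strand: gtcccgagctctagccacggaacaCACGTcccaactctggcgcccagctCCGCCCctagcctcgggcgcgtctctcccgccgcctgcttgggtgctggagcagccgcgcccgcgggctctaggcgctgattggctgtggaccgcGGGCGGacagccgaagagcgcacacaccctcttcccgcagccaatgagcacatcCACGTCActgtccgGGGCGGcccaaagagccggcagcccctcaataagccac
Ppp1r3c, chr19:36736605-36736854, minus strand: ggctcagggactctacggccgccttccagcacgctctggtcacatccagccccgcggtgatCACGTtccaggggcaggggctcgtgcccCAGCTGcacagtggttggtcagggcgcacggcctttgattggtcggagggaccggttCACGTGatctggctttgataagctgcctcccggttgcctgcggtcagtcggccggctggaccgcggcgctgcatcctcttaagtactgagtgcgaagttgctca
Ldhb, chr6:142507958-142508207, minus strand: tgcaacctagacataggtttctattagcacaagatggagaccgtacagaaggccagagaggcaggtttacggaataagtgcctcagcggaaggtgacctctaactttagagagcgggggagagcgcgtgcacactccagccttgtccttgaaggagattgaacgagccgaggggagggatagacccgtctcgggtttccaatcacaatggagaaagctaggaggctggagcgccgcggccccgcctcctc
Pgam2, chr11:5803797-5804046, minus strand: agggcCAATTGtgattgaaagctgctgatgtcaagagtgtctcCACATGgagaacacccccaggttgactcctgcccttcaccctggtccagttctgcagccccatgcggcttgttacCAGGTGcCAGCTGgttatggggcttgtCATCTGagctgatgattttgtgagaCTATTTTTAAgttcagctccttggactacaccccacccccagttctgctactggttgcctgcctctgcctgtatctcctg
RefSeq had such a window for 9 of the 10 members (15 windows), all except Slc2a4. The Hk2 window held GC boxes that began 201, 106 and 38 bases before the start, and the Ppp1r3c window held an E-box of the form CACGTG 104 bases before it, which overlaps ACGTG. Pgam2 had 5 E-boxes and the MEF2 motif, and the Ldhb window held none of the motifs. Over all 32851 windows of the table, CANNTG was present in 66.2%, GGGCGG in 32.7%, ACGTG in 16.6%, TGACG in 17.8%, TATAAA in 12.4% and the MEF2 motif in 2.92%. Of the 15 member windows, some of which overlap, CANNTG was present in 12, GGGCGG in 4, ACGTG in 8, TGACG in 3, TATAAA in 0 and the MEF2 motif in 1. Counts by gene are not on the scale of these window shares, since some genes have several windows. Of the 9 member genes, 7 had CANNTG in a window, 3 had GGGCGG, 6 had ACGTG, 2 had TGACG, none had TATAAA, and 1, Pgam2, had the MEF2 motif. Matches of letters are given as a description and were not set against binding.

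Some libraries stood apart. C57BL10 TA sample 2 and mdx5cv quadriceps sample 2 had the lowest median Spearman correlations across genes with the other arrays, 0.621 and 0.769, and mdx EDL sample 1 is described as mdx5cv although its title and source name mdx. Of 4 scanning periods, known for 30 arrays, the first (5 arrays) and the fourth (1 array) held C57BL10 alone, the second 5 mdx and 4 mdx5cv arrays with no control, and the third all strains, so that strain and period overlap in the third period only. Fits blocked on period used these 30 arrays, without C57BL10 TA sample 2, mdx TA sample 1, mdx5cv TA sample 2 and C57BL10 diaphragm sample 2. The third period held no C57BL10 diaphragm or TA array, no mdx gastroc array and no group with both samples. The Dmd signal lay between 368.6 and 1928.2 (median 668.4) in C57BL10, between 104.2 and 586.5 (median 216.5) in mdx and between 158.5 and 518.8 (median 301.8) in mdx5cv, so the strains overlapped. The ratio of actin 3' to 5' signal, which rises as RNA degrades, averaged 0.768 over C57BL10 (SD 0.114), 1.096 over mdx (SD 0.343) and 1.034 over mdx5cv arrays (SD 0.126). The Gapdh ratio averaged 1.044 (SD 0.27), 1.345 (SD 0.894) and 1.097 (SD 0.355) in that order, so its means were also higher in the mutants. Its medians, 0.966, 0.918 and 0.914, were not. With so few arrays a group, the precision of every value is limited by their number.

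Averaged over the 6 muscles, Slc2a4, Ppp1r3c and Ldhb were lower in both mutants and Hk2 in mdx5cv alone. Neither Pygm nor any of the member enzymes from Pfkm to Ldha passed the limma test in either strain, as given below. In mdx, Ppp1r3c, Ldhb and Slc2a4 fell, and the other 7 members did not pass. In mdx5cv, Hk2, Ldhb, Ppp1r3c and Slc2a4 fell, and the other 6 did not pass. Thus 3 of 10 members were lower in mdx, where 5.82% of all tested probe sets were lower and 15.9% changed in either direction. In mdx5cv 4 of 10 were lower, against 4.47% lower and 14.9% changed among all. No member separated all arrays of a mutant from all C57BL10 arrays, which 0.631% of probe sets did for mdx and 0.993% for mdx5cv. The group mean was lower in all 6 muscles for Ppp1r3c and Ldhb in mdx (7.9% of all probe sets) and for Pfkm and Ldhb in mdx5cv (4.56%). Both comparisons use the same C57BL10 arrays. The median difference of the members was -0.10 in mdx and -0.38 in mdx5cv, beside -0.06 and 0.02 over all tested probe sets. All 7 of these calls held with any 1 of 32 arrays left out. The lone mdx gastroc and mdx5cv gastroc arrays were not among these 32.

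**Figure D1:**
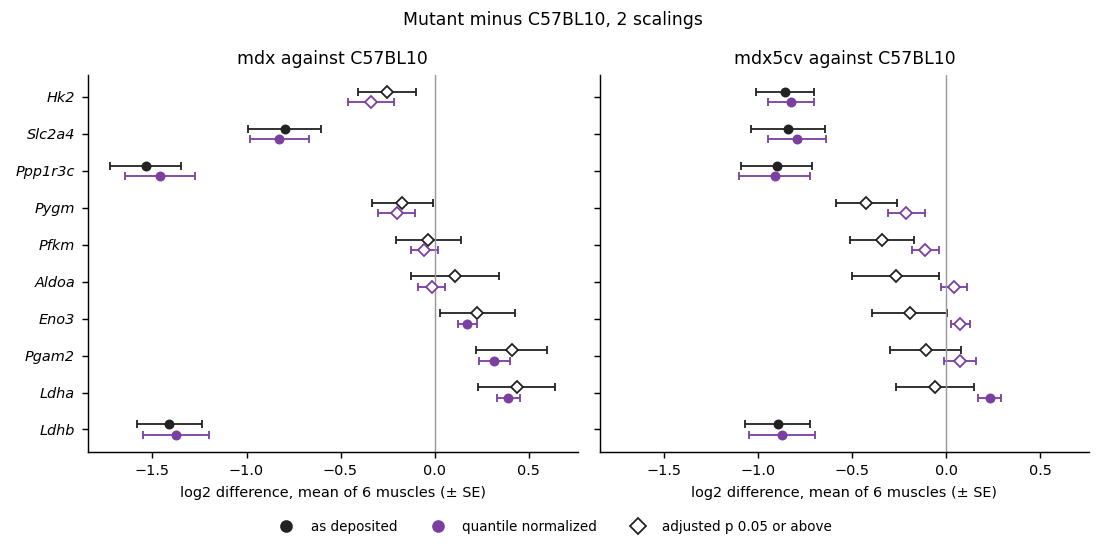
Log2 difference of each member from C57BL10 averaged over 6 muscles (x axis, bars ± SE) for mdx (left) and mdx5cv (right), with the deposited scaling in black and quantile normalization in purple; filled circles have an adjusted p under 0.05 and open diamonds do not. Slc2a4, Ppp1r3c and Ldhb lie left of 0 in both panels under both scalings, and Hk2 passes in mdx5cv alone.

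These are whole-muscle samples, in which fewer fibres and less RNA per fibre cannot be told apart. Of 16 tested macrophage and monocyte markers, 15 rose in each mutant (medians of 1.86 in mdx and 1.84 in mdx5cv), and their summed signal was 13489.7 to 32762.9 in C57BL10, 32493.9 to 103727.5 in mdx and 40552.6 to 102277.8 in mdx5cv. The macrophage markers Adgre1 and Ptprc lay at the floor on 6 and 4 of the 12 C57BL10 arrays. Of 11 fibroblast and matrix markers 10 rose in each strain, as did 10 of 12 markers of regenerating muscle. Of 8 markers of all muscle fibres 1 rose and none fell in each strain, with medians of -0.13 in mdx and -0.19 in mdx5cv, and the 11 tested fast-fibre markers had medians of 0.14 and -0.17. Slow-fibre markers differed in direction between the strains, with 5 of 12 lower and 1 higher in mdx and 4 higher and 1 lower in mdx5cv. Of 7 adipocyte markers 2 fell in each strain (medians of -0.39 and -0.32), and of 3 erythroid markers 1 fell in mdx and 2 in mdx5cv (medians of -0.51 and -0.75). The part of cell makeup in the members' values was not tested.

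Slc2a4 encodes GLUT4, the insulin-responsive glucose transporter of muscle and fat. Its signal ran from 5112.5 to 24514.8 (median 18408.1) over 12 C57BL10 arrays, from 4373.1 to 15489.3 (median 9869.9) over 11 mdx arrays and from 3081.5 to 14676.4 (median 8313) over 11 mdx5cv arrays. The lowest C57BL10 value belonged to TA sample 2, the array with the lowest correlation to the rest. The mean difference was -0.80 ± 0.19 in mdx (limma adjusted p = 0.0059), 0.576 of the C57BL10 level. In mdx5cv it was -0.84 ± 0.19 (limma adjusted p = 0.0036), or 0.558 of that level.

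Muscle by muscle, every mutant array of the diaphragm, EDL, gastroc, quadriceps and soleus had less Slc2a4 signal than both C57BL10 arrays of that muscle, and the TA did not. Non-overlap in at least 5 muscles for both mutants was found for 0.912% of all probe sets. In EDL the C57BL10 arrays read 20562 and 19181, the mdx arrays 6659 and 9870 and the mdx5cv arrays 12654 and 12269. In soleus they read 20699 and 17644 in C57BL10, 9920 and 7242 in mdx and 12881 and 8130 in mdx5cv. The mutants thus lay below C57BL10 in both muscles with no overlap. In TA, where the C57BL10 arrays read 19173 and 5113, the mdx arrays (12801 and 15489) and mdx5cv arrays (8313 and 14676) fell between them. Within the third scanning period alone, which held arrays of all strains, the difference was -1.36 in mdx5cv, while in mdx it was -1.26 and did not pass. That period held no C57BL10 diaphragm or TA array and no group with both samples. These values are therefore not averages of all 6 muscles and leave out the TA comparison.

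Hk2 encodes hexokinase II, the insulin-regulated hexokinase of muscle. Its signal spanned 10020.9 to 21880.8 (median 17879.7) in C57BL10, 9278.4 to 26809.4 (median 13738) in mdx and 4619.4 to 16092.8 (median 9783.2) in mdx5cv. The mdx5cv mean was lower by limma (-0.86 ± 0.15, adjusted p = 2.6e-04), and the mdx value was -0.25 ± 0.15 (adjusted p = 0.28). Low mdx5cv values were those of quadriceps, at 7644 and 4619 beside 16378 and 18723 in C57BL10, of gastroc, at 6089 beside 21272 and 16439, and of diaphragm sample 2, at 6341. In EDL the mdx5cv arrays read 9783 and 9351, the mdx arrays 13738 and 10996 and the C57BL10 arrays 20150 and 21881. None of these EDL differences passed by limma. The adjusted p was 0.37 for mdx and 0.17 for mdx5cv against C57BL10, and 0.94 between the mutants. The TA again showed no separation, with 16093 and 14927 in mdx5cv between the C57BL10 values of 18375 and 10021. In soleus the mdx samples themselves differed, 12914 and 26809. The direct comparison of mdx5cv with mdx gave -0.60 ± 0.16 for Hk2 (limma adjusted p = 0.12), so the strains were not shown to differ.

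**Figure D2:**
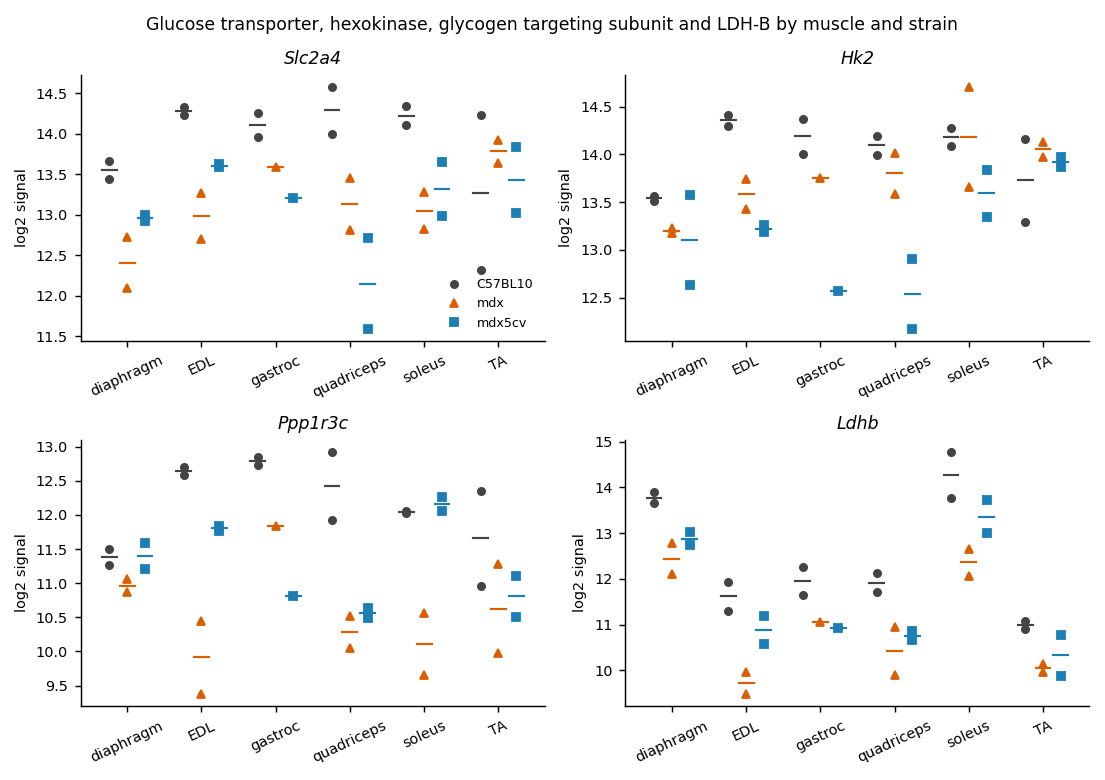
Log2 signal (y axis) of Slc2a4, Hk2, Ppp1r3c and Ldhb by muscle (x axis) and strain; each symbol is an array and each short line a group mean. Every mutant Ldhb symbol lies below both C57BL10 symbols of its muscle, and Slc2a4 does so in all muscles except the TA.

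Of the other 8 listed genes of glucose entry and phosphorylation, 5 were on the array and 2 passed the filter, and neither changed. Hk1, the hexokinase most tissues share, had values of -0.17 ± 0.22 in mdx and 0.26 ± 0.22 in mdx5cv (limma adjusted p = 0.64 and 0.51). Slc2a1, the gene of GLUT1, the transporter of basal uptake, had a median signal of 286.3 and was below the filter.

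Among signalling genes of insulin and the AMP-activated kinase, 11 were tested, of which 1 rose and 1 fell in mdx and 1 rose in mdx5cv. Hif1a, the oxygen-sensing factor whose known targets include glycolytic genes, rose by 1.15 ± 0.16 in mdx and 0.89 ± 0.16 in mdx5cv (limma adjusted p = 1.6e-05 and 3.6e-04), on a probe set of a class that can share probes with similar sequences. Prkag1, a regulatory subunit of the kinase, fell in mdx (-1.14 ± 0.26, adjusted p = 0.0038), but without the EDL in the average its value was -0.72 (adjusted p = 0.11). In the EDL itself Prkag1 was higher in mdx5cv than in mdx by 3.21 ± 0.62 (adjusted p = 0.017).

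Ppp1r3c encodes a regulatory subunit that brings protein phosphatase 1 to glycogen, where it favours glycogen synthesis. Its signal ranged from 1986.5 to 7763.3 (median 4757.6) in C57BL10, from 663.8 to 3673.2 (median 1462.2) in mdx and from 1434 to 4898.5 (median 2374) in mdx5cv. It fell in mdx by 1.54 ± 0.19 (limma adjusted p = 1.9e-06), to 0.345 of the C57BL10 level. In mdx5cv the difference was -0.90 ± 0.19 (limma adjusted p = 0.0015), or 0.535 of that level.

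By muscle, Ppp1r3c read as follows, and whether its layout differs between the mutants was not tested. In EDL the signals were 6152 and 6661 in C57BL10, 664 and 1398 in mdx and 3674 and 3477 in mdx5cv. In soleus they were 4283 and 4184 in C57BL10, 1517 and 806 in mdx and 4899 and 4281 in mdx5cv. The mdx5cv soleus arrays thus overlapped the C57BL10 arrays, while both mdx arrays were far below. In quadriceps both mutants were low, with 1462 and 1057 in mdx and 1584 and 1434 in mdx5cv beside 3894 and 7763 in C57BL10. In the diaphragm the mdx arrays (2129 and 1872) lay under the C57BL10 arrays (2475 and 2899), and the mdx5cv arrays (3068 and 2374) spanned them. Taken by muscle, mdx lay below C57BL10 without overlap in 5 of 6 muscles, all except the TA (at least 5 muscles for 3.3% of all probe sets), and mdx5cv in the EDL, gastroc and quadriceps. No share of all probe sets was taken for the mdx5cv count.

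The direct comparison of the mutants did not pass for Ppp1r3c in the fit of the group means. Averaged over the muscles, Ppp1r3c was 0.63 ± 0.20 higher in mdx5cv than in mdx (limma adjusted p = 0.27), and in the EDL 1.89 ± 0.45 higher (adjusted p = 0.088), a ratio of 3.71. Blocking on scanning period put the EDL difference past the threshold at 1.89 (adjusted p = 0.020). The EDL value rests in part on mdx EDL sample 1, the array with the conflicting description, which the blocked fit also held. Without that array the EDL difference was 1.35 in the fit of the group means, with 1 mdx EDL array left. The other mdx array, at 1398, was also below both mdx5cv arrays. Of 12 tested slow-fibre markers 7 were higher in mdx5cv EDL than in mdx EDL (median 2.31). Averages without the EDL still held 3 members in mdx and 4 in mdx5cv.

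Pygm, the muscle glycogen phosphorylase, which releases glucose units from glycogen, was among the most abundant transcripts. It ran from 36043.1 to 141598.8 (median 82855) in C57BL10, from 22786.6 to 131767.3 (median 66464) in mdx and from 26766.1 to 83447.8 (median 55069.1) in mdx5cv. The ranges overlapped widely, and the differences were -0.17 ± 0.16 in mdx and -0.43 ± 0.16 in mdx5cv (limma adjusted p = 0.51 and 0.085). In soleus the mdx5cv arrays read 35501 and 32276, below 55304 and 57965 in C57BL10, and the mdx arrays read 55205 and 79440.

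Of 10 other tested glycogen genes 1 fell in each strain and 9 did not pass. Gyg, the glycogenin that starts a glycogen particle, fell in mdx by 0.68 ± 0.14 (limma adjusted p = 0.0011), and its mdx5cv value was -0.33 ± 0.14 (adjusted p = 0.12). Phka1, the muscle alpha subunit of phosphorylase kinase, passed in mdx5cv (-0.68 ± 0.23, adjusted p = 0.045) and lost the call with 17 of 32 single arrays left out, with adjusted p up to 0.097. Gys1, the muscle glycogen synthase, had values of -0.06 ± 0.15 in mdx and -0.44 ± 0.15 in mdx5cv (adjusted p = 0.83 and 0.051).

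Pfkm, Aldoa, Eno3 and Pgam2 encode the muscle forms of phosphofructokinase, aldolase, enolase and phosphoglycerate mutase, which act in that order along glycolysis, and Ldha encodes the muscle-type subunit of lactate dehydrogenase, which turns pyruvate into lactate. None of the 5 passed the test in either mutant. In mdx the values were -0.03 ± 0.17 for Pfkm, 0.11 ± 0.23 for Aldoa, 0.23 ± 0.20 for Eno3, 0.41 ± 0.19 for Pgam2 and 0.44 ± 0.21 for Ldha (limma adjusted p from 0.15 for Pgam2 to 0.92 for Pfkm). In mdx5cv they were -0.34 ± 0.17 for Pfkm, -0.27 ± 0.23 for Aldoa, -0.19 ± 0.20 for Eno3, -0.11 ± 0.19 for Pgam2 and -0.06 ± 0.21 for Ldha (adjusted p from 0.21 to 0.91).

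The spread of these enzymes between arrays was wide and shared. Ldha ran from 31621.5 to 123510.8 (median 86522) in C57BL10, from 46293.6 to 301136.9 (median 84596.1) in mdx and from 39983.6 to 106335.9 (median 64224.5) in mdx5cv. Eno3 ran from 38089.7 to 137535 (median 89784.8), 44507 to 277659.3 (median 78808.1) and 43314.8 to 105273.6 (median 65087.9) in the same order. The highest array for all 5 genes was mdx TA sample 2, with Ldha at 301137 where the other mdx TA array read 87250. The lowest array of each strain was a diaphragm array for each of these genes. For Pgam2 the C57BL10 TA arrays, 60429 and 22119, spanned the mutant TA arrays except mdx TA sample 2 at 149432.

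**Figure D3:**
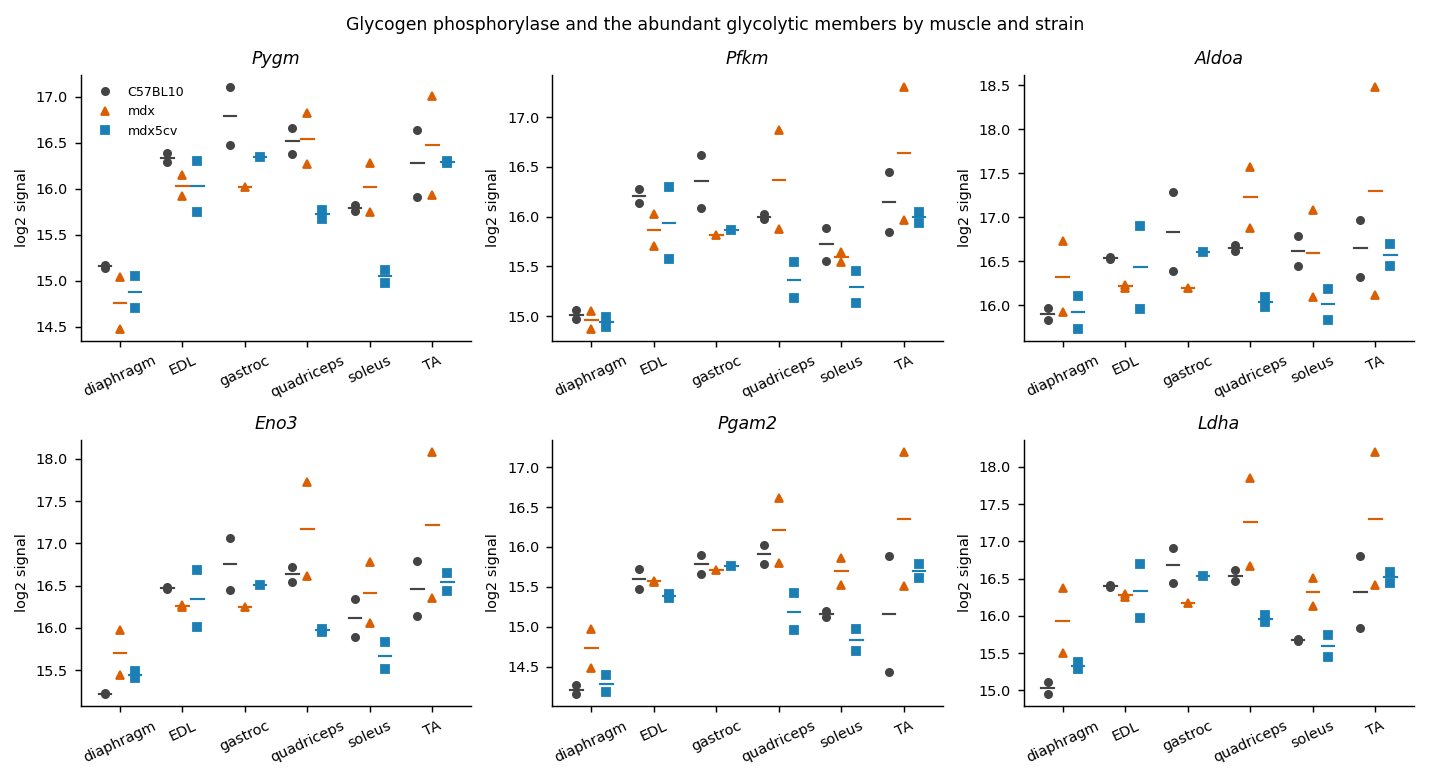
Log2 signal (y axis) of Pygm, Pfkm, Aldoa, Eno3, Pgam2 and Ldha by muscle (x axis) and strain; each symbol is an array and each short line a group mean. The C57BL10 diaphragm has the lowest C57BL10 mean in each panel, and mdx TA sample 2 holds the highest symbol in all panels except Pygm.

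The level of these members followed the top end of each array, taken as the signal that 0.1% of its probe sets exceed. Across the 34 arrays, which share strains and muscles, the correlation of the log2 signal with the log2 of that top signal was r = 0.946 for Aldoa, 0.827 for Eno3, 0.796 for Ldha, 0.736 for Pfkm, 0.674 for Pgam2 and 0.570 for Pygm, against 0.447 for Hk2, 0.214 for Slc2a4, -0.098 for Ppp1r3c and -0.255 for Ldhb. The members themselves are part of that top end. The top signal was highest on mdx TA sample 2 (242754.6) and mdx quadriceps sample 2 (195507.4), beside strain medians of 91502 in C57BL10, 77858 in mdx and 67053 in mdx5cv. Without these 2 arrays the mdx values of Aldoa and Eno3 were -0.14 and -0.011 instead of 0.11 and 0.23. After quantile normalization, which gives every array the same distribution, Ldha, Pgam2 and Eno3 passed in mdx at 0.39, 0.32 and 0.18 (limma adjusted p = 8.1e-05, 0.012 and 0.021), and Ldha turned to 0.23 in mdx5cv (adjusted p = 0.014). On that scale Aldoa turned to -0.015 in mdx, and in mdx5cv Aldoa, Eno3 and Pgam2 turned to 0.041, 0.073 and 0.071, none of which passed. In the fit blocked on scanning period Ldha also passed in mdx, at 0.65 (adjusted p = 0.045). In mdx5cv the signs of Aldoa, Eno3, Pgam2 and Ldha thus depended on the scaling, and in mdx that of Aldoa, while Ldha, Pgam2 and Eno3 in mdx and Pfkm in both strains kept their sign. Slc2a4, Ppp1r3c and Ldhb fell in both mutants under either one.

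**Figure D4:**
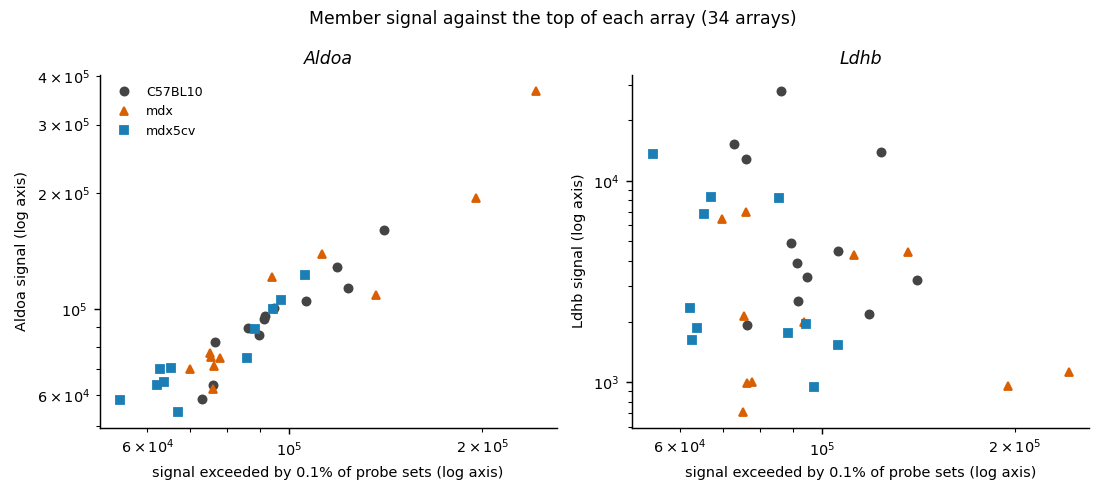
Signal of Aldoa (left) and Ldhb (right) against the signal that 0.1% of the probe sets exceed on each of 34 arrays (both axes log, signal units), with symbols by strain. Aldoa rises along with the top of the array (r = 0.946) and Ldhb does not (r = -0.255).

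Of 9 other tested glycolytic enzyme genes 1 rose in each strain and 8 did not pass. This was Pgam1, the phosphoglycerate mutase of most tissues other than muscle, at 1.01 ± 0.14 in mdx and 0.75 ± 0.14 in mdx5cv (limma adjusted p = 9.7e-06 and 4.0e-04). Pgam2, the muscle form, had values of 0.41 and -0.11 in the same comparisons, as given above. Pkm, the gene of muscle pyruvate kinase, had values of 0.22 ± 0.18 and -0.09 ± 0.18, the latter 0.15 after quantile normalization. No tested probe set was annotated to Gapdh.

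Ldhb encodes the heart-type subunit of lactate dehydrogenase, which is known from oxidative tissues that take up lactate. In each of the 6 muscles every mutant array had less Ldhb signal than both C57BL10 arrays. This held for 8 of the 7453 tested probe sets in both mutants (0.107%), for 0.523% in mdx and for 0.389% in mdx5cv. Over the arrays the signal spanned 1926.6 to 28068.7 (median 4201.4) in C57BL10, 714.5 to 7025.9 (median 1984.3) in mdx and 947.1 to 13563.8 (median 1955.7) in mdx5cv.

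The gap was seen at high and at low levels of Ldhb. In soleus, where Ldhb was highest, the arrays read 28069 and 13864 in C57BL10, 6471 and 4304 in mdx and 13564 and 8172 in mdx5cv. In EDL they read 3921 and 2528 in C57BL10, 715 and 1003 in mdx and 2334 and 1529 in mdx5cv. In both muscles mdx was lowest, and the nearer mdx5cv array came close to the lower C57BL10 array. In the diaphragm they read 12885 and 15229 in C57BL10, 7026 and 4431 in mdx and 6824 and 8339 in mdx5cv. In TA the C57BL10 arrays read 2174 and 1927, the mdx arrays 996 and 1122 and the mdx5cv arrays 947 and 1750. The mutant arrays overlapped each other in the diaphragm and TA.

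Averaged over the muscles, Ldhb fell in mdx by 1.41 ± 0.17 (limma adjusted p = 1.8e-06), to 0.376 of the C57BL10 level. In mdx5cv it fell by 0.90 ± 0.17 (limma adjusted p = 6.5e-04), to 0.537 of that level. A fit blocked on scanning period gave -1.35 and -0.86 (adjusted p = 6.8e-04 and 0.014). The difference between the mutants, 0.51 ± 0.18, did not pass (adjusted p = 0.34).

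Of 11 other tested genes of lactate and pyruvate handling and of the redox shuttles, 1 rose and 1 fell in mdx, and 1 rose and 2 fell in mdx5cv. Pdk4, a kinase that shuts off pyruvate dehydrogenase and so spares glucose, rose by 1.06 ± 0.22 in mdx and 1.42 ± 0.22 in mdx5cv (limma adjusted p = 0.0015 and 5.8e-05). Pdk1, a kinase of the same family, fell in mdx (-0.50 ± 0.14, adjusted p = 0.014). Fbp2, the muscle fructose bisphosphatase, which acts against phosphofructokinase, fell in mdx5cv (-0.66 ± 0.16, adjusted p = 0.0059), but its value was -0.41 (adjusted p = 0.28) in the fit blocked on scanning period. Gpd2, the mitochondrial enzyme of the glycerol phosphate shuttle, fell in mdx5cv (-0.52 ± 0.13, adjusted p = 0.0076) and was at -0.50 (adjusted p = 0.096) in that fit. Its probe set, here and in the soleus comparison below, is of a class that can share probes with similar sequences.

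Within single muscles, 6 of the 60 pairs of member and muscle passed for both mutants together against C57BL10, all of them lower on the deposited scale. In EDL these were Ppp1r3c (-1.79 ± 0.39, limma adjusted p = 0.0079) and Ldhb (-1.32 ± 0.35, adjusted p = 0.044), where 0.322% of all tested probe sets were lower. In quadriceps, where 1.49% were lower, they were Ppp1r3c (-2.01 ± 0.39, adjusted p = 0.0019), Slc2a4 (-1.65 ± 0.40, adjusted p = 0.013) and Ldhb (-1.32 ± 0.35, adjusted p = 0.027). In soleus Ldhb passed (-1.40 ± 0.35, adjusted p = 0.042), beside 0.188% of all lower. No member passed limma's threshold in the diaphragm, gastroc or TA, where 2.98%, 2.25% and 4.32% of all probe sets passed. There 2, 3 and 3 members had an unadjusted p under 0.05, a looser threshold for which no share of all probe sets was taken. Each of the 6 calls was lost with some of the 32 single arrays left out: Ldhb in EDL with 13, in soleus with 11 and in quadriceps with 4, Ppp1r3c in EDL and Slc2a4 in quadriceps with 3 each, and Ppp1r3c in quadriceps with 1. The highest adjusted p came without C57BL10 EDL sample 2 for Ppp1r3c in EDL (0.10), C57BL10 EDL sample 1 for Ldhb there (0.58), C57BL10 soleus sample 1 for Ldhb in soleus (0.76) and C57BL10 quadriceps sample 2 for Ppp1r3c (0.14), Slc2a4 (0.24) and Ldhb (0.32) in quadriceps. Without mdx EDL sample 1 the 2 EDL calls had adjusted p = 0.053 and 0.17, and Ldhb in soleus 0.050. After quantile normalization Ldhb did not pass in EDL and soleus (limma adjusted p = 0.061 and 0.083), Hk2 passed lower in EDL (-0.95), and Ldha passed higher in the diaphragm (0.54) and soleus (0.64). Leaving out both quadriceps arrays that are identical to gastroc columns kept the quadriceps calls of Ppp1r3c (-1.92) and Slc2a4 (-1.77), ended that of Ldhb (-1.11, adjusted p = 0.090) and added Hk2 (-1.22, adjusted p = 0.039).

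In the same muscles the slow-fibre markers differed in direction, with 7 of 12 higher in mutant EDL (median 1.55) and 6 of 12 lower in mutant quadriceps (median -1.29), and in soleus their median was -0.53. The EDL value pools unlike strains, since the summed slow-fibre signal was 261797.3 and 323442.9 in mdx5cv EDL. It was 99915 and 107795.6 in mdx EDL, below 114724.8 and 113316.8 in C57BL10 EDL. Ldhb was lower in all 3 muscles, and in EDL it was lowest in mdx. The part of fibre type in these values was not tested. The F test of whether the change differed between muscles called none of the 10 members and 0.671% of all probe sets. Ppp1r3c and Slc2a4 had an unadjusted p under 0.05 in it (limma adjusted p = 0.56 and 0.60). No share of all probe sets was taken at that unadjusted threshold.

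**Figure D5:**
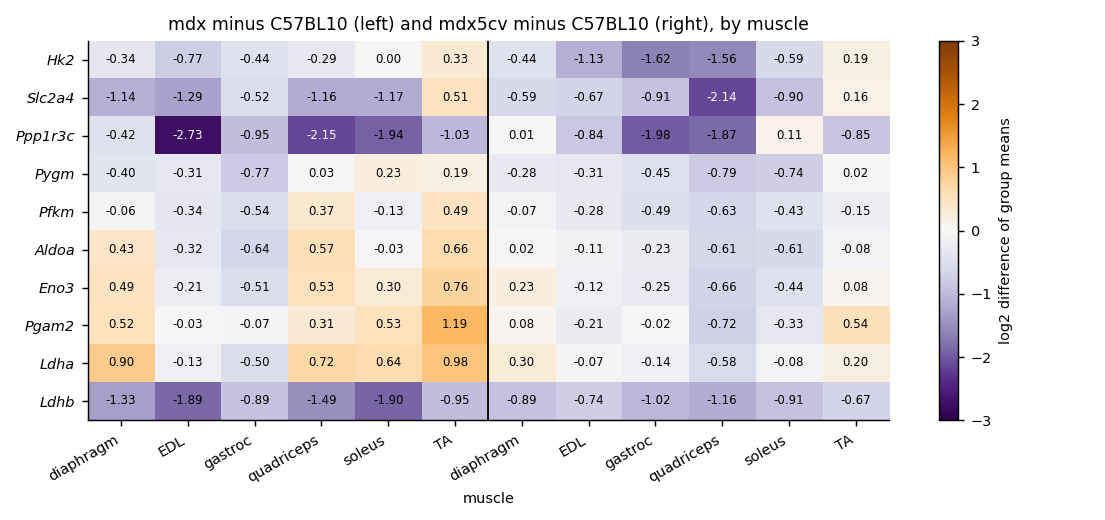
Log2 difference of group means from C57BL10 for each member (rows) and muscle (columns), mdx on the left and mdx5cv on the right, with each value printed in its cell. Ldhb is below 0 in all 12 columns and Ppp1r3c in 10, and the TA columns are above 0 for Slc2a4 and Hk2 in both mutants.

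The TA differed from the other muscles in the sign of several members. Its mutant values were 0.33 ± 0.40 for Slc2a4 and 0.26 ± 0.31 for Hk2 (limma adjusted p = 0.63 for both). Without C57BL10 TA sample 2, the array with the lowest correlation to the rest, they were -0.62 and -0.18, and without C57BL10 TA sample 1 they were 1.29 and 0.70. The liver list also differed in TA, where 5 of its 8 tested markers were lower in the mutants (median -2.59) and its summed signal was 49260.9 and 26540.3 on the C57BL10 arrays. Ldhb (-0.81 ± 0.35, adjusted p = 0.18) and Ppp1r3c (-0.94 ± 0.39, adjusted p = 0.16) kept their sign with any 1 of the 32 arrays left out.

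Between the mutants, no member passed the test of mdx5cv against mdx averaged over the muscles by limma, where 0.523% of all probe sets did. An unadjusted p under 0.05 was found for 5 members, and no share of all probe sets was taken at that looser threshold. Ppp1r3c (0.63) and Ldhb (0.51) were higher in mdx5cv, and Hk2 (-0.60), Pgam2 (-0.52) and Ldha (-0.50) were lower. In the fit blocked on scanning period Ppp1r3c (0.72), Eno3 (-0.62), Pgam2 (-0.66) and Ldha (-0.70) passed (adjusted p = 0.046, 0.045, 0.026 and 0.031). The share of all probe sets that passed in that blocked fit is not given here. In the EDL alone 0 of 10 passed in the fit of the group means, beside 0.174% of all. There 2 had an unadjusted p under 0.05, again without a share of all at that threshold.

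Among C57BL10 muscles Ldhb set the soleus and diaphragm apart from the fast limb muscles, EDL, gastroc, quadriceps and TA. The C57BL10 soleus (28069 and 13864) and diaphragm (12885 and 15229) overlapped each other. Below them came the gastroc (3207 and 4898), quadriceps (3339 and 4482) and EDL (3921 and 2528), which overlapped, and the TA (2174 and 1927), whose arrays both lay under those of the EDL. Soleus exceeded the fast limb muscles by 2.65 ± 0.32 in Ldhb (limma adjusted p = 8.2e-06), or 6.26-fold. In the mutants the same difference was 2.34 ± 0.23 (adjusted p = 3.3e-07), or 5.08-fold, and the change from C57BL10 in soleus differed from that in the fast muscles by -0.30 ± 0.40 (adjusted p = 1.00).

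No other member passed between soleus and the fast limb muscles on the deposited scale. Ldhb was thus 1 of 10 beside 2.82% of all probe sets in C57BL10 (1.57% higher), and 1 of 10 beside 2.51% in the mutants (1.54% higher). In C57BL10 Ldha had a value of -0.81 ± 0.38 and Pygm of -0.69 ± 0.30 (limma adjusted p = 0.40 and 0.34). After quantile normalization Pygm (-0.86), Pfkm (-0.67), Eno3 (-0.64), Pgam2 (-0.73) and Ldha (-0.98) were lower in C57BL10 soleus (adjusted p from 5.6e-06 for Ldha to 0.0078 for Pgam2). On that scale 104 of all tested probe sets were lower there. Of 12 slow-fibre markers 9 were higher in C57BL10 soleus (median 3.83), and 2 of 11 fast-fibre markers were lower.

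Several genes around the members also set the C57BL10 soleus apart, and those not named by the rule were picked after their values were seen. Of 10 other glycogen genes, Phkg1, the catalytic subunit of muscle phosphorylase kinase (-2.13 ± 0.25), Phka1 (-1.66 ± 0.42) and Pgm1, which links glucose 1-phosphate and glucose 6-phosphate (-1.13 ± 0.27), were lower, and Gbe1, the glycogen branching enzyme, was higher (1.36 ± 0.35). Of 11 genes of lactate, pyruvate and shuttles, Gpd2 (-2.20 ± 0.25), Gpd1 (-1.94 ± 0.38) and Fbp2 (-1.47 ± 0.30) were lower, and Pdk4 (2.17 ± 0.41) and Pdk1 (1.11 ± 0.25) were higher.

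In the C57BL10 diaphragm 6 of 10 members differed from the fast limb muscles, where 17.3% of all probe sets did, 8.24% higher and 9.11% lower. Ldhb was higher by 2.15 ± 0.32 (limma adjusted p = 2.5e-05), or 4.44-fold. Pygm (-1.33 ± 0.30), Pfkm (-1.16 ± 0.32), Eno3 (-1.36 ± 0.37), Pgam2 (-1.40 ± 0.35) and Ldha (-1.45 ± 0.38) were lower (adjusted p from 0.0028 to 0.012). For Aldoa the 2 tested probe sets disagreed on the call, -0.77 ± 0.43 (adjusted p = 0.26) for the brighter and -1.23 ± 0.38 (adjusted p = 0.026) for the other, and both are of a class that can share probes with similar sequences. The 5 lower calls were lost without either C57BL10 diaphragm array, which left Ldhb alone.

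The diaphragm arrays also held transcripts of liver. All 8 tested liver markers were higher in the C57BL10 diaphragm (median 6.70), and the summed signal of the liver list was 172360 to 610279.2 over the 6 diaphragm arrays against 4165.6 to 4971.2 over the 6 EDL arrays and up to 49260.9 over the TA arrays. Of 8 markers of all muscle fibres 5 were lower there (median -0.91), as were 5 of 11 fast-fibre markers (median -1.06). The 5 lower members had values from -1.16 (Pfkm) to -1.45 (Ldha). Pgam1 was higher in the C57BL10 diaphragm by 1.70 ± 0.26 (limma adjusted p = 3.0e-05). The part of the liver transcripts and of fibre content in these values was not tested. Averages without the diaphragm held the same number of members, 3 in mdx and 4 in mdx5cv.

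The members were compared in pairs by how they varied over the 18 group means, given as a description of groups that share arrays' scale. Eno3 and Ldha ran most closely together (r = 0.974), while Ldha and Ldhb ran in opposite directions (r = -0.740). Slc2a4 followed Hk2 (r = 0.726) and Ppp1r3c (r = 0.694), while Hk2 and Ppp1r3c had r = 0.348 with each other. Ldhb had the widest range of group means, 23.3-fold from mdx EDL to C57BL10 soleus, followed by Ppp1r3c with 7.38-fold from mdx EDL to C57BL10 gastroc, and the others ranged from 2.65-fold for Aldoa to 4.84-fold for Ldha.

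Among all tested genes, the closest to Ldhb over the 18 group means were Idh2, the mitochondrial NADP-dependent isocitrate dehydrogenase (r = 0.974), Acss1 (r = 0.949) and Dhrs4 (r = 0.916). The closest to Ldha were Casq1, the calsequestrin of fast muscle (r = 0.978), the calcium buffer Pvalb (r = 0.973) and Tpi1, the triosephosphate isomerase of glycolysis (r = 0.957). Outside the members, Tpi1 was also closest to Eno3 and Pgam2 (r = 0.972 for each) and Pfkm (r = 0.938). Myh4, a fast myosin heavy chain, was closest to Pygm (r = 0.969), and Atp2a1, the calcium pump of fast fibres, to Aldoa (r = 0.971). Slc2a4 was nearest to Ptp4a3 (r = 0.924), Hk2 to Crat, the carnitine acetyltransferase (r = 0.907), and Ppp1r3c to Mtmr1 (r = 0.905).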

How the data were processed

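RNA of 36 pooled muscle samples was hybridised to Affymetrix MG_U74Av2 arrays. The deposited values are linear signal intensities of 12488 probe sets, scaled by the authors to one level, since a mean that leaves out 2% of the values at each end was 1500.4 to 1501.3 on every array (median signals 458 to 1026.3). How probe pairs were summarised is not given in the labels or files used. Of the columns in the deposited table, 2 pairs were identical in every probe set, and the gastroc copies were left out, which left 34 arrays. Probe sets were named through the platform annotation, updated to RefSeq symbols (10855 with 1 symbol, 396 with several, 1237 with none). Other per-array columns of the deposited experiment files served to read scanning periods of 30 arrays, days more than 30 apart being put in separate periods.

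Analysis was on log2 signals after raising values below the table's 20th percentile (118) to that floor. Of 12422 probe sets other than the 66 controls, 7453 had a mean that reached the 40th percentile, and these were tested. The fit in limma 3.58.1 (R 4.3.3) had a mean for each of 18 groups, an eBayes variance trend and 16 residual degrees of freedom, and a lone array shares the spread of the other groups. Tests are two-sided, with p-values adjusted by Benjamini and Hochberg within each comparison and a threshold of 0.05. The members, gene lists and comparisons were chosen with earlier results of these data known. The 10 members are always named. Other pathway genes are named where they passed in an averaged strain comparison (up to 5 a list), with Gapdh, Hk1, Gys1, Pdk4, Pkm and Slc2a1 always. The 3 genes outside the members that were closest to each member over the group means were sought, of which the text gives a part. The fit was tested on simulated data. Alternatives were quantile normalization, other filters and floors, no variance trend, array weights, blocks for sample number and scanning period, the third period alone, the copies included, and arrays, the diaphragm or the EDL left out. Leaving out the 2 arrays with the highest top signal, and leaving out the 2 quadriceps arrays identical to gastroc columns, were chosen after the signals were seen. Promoter sequences are from RefSeq (GRCm38.p6). Figures were drawn with matplotlib 3.10.9.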

Additional observations from a re-analysis of the deposited data

How the results depend on the processing

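The 7 falls in the averaged strain comparisons (Slc2a4, Ppp1r3c and Ldhb in both mutants, Hk2 in mdx5cv) kept their direction under every alternative run. They passed in all of them, except Slc2a4 in mdx within the third scanning period (-1.26). That period held no C57BL10 diaphragm or TA array and no group with both samples, so its values are not averages of all 6 muscles. Numbers of members past the threshold moved with the setting, and numbers of all probe sets are given beside them for some settings only. Quantile normalization gave 6 in mdx (3 higher and 3 lower), where 1077 of all probe sets passed, beside 3 members as reported. It gave 6 in each soleus comparison, where 205 (C57BL10) and 189 (mutants) of all probe sets passed, beside 1 member as reported. Pairs of member and muscle numbered 7 beside 6, with Ldhb in EDL and soleus lost, Hk2 in EDL added lower and Ldha in diaphragm and soleus added higher. Quantile normalization also shifted the median of all probe sets in the mutant quadriceps from 0.01 to -0.12 and in the mutant TA from 0.00 to 0.15. The scanning period block gave 4 for mdx5cv against mdx, 1 in the EDL comparison of the mutants and 2 for mutant soleus. Array weights gave 2 for mutant soleus, 1 in the EDL and 11 pairs of member and muscle, beside 0 and 6 as reported. Including the copies gave 1 for mdx5cv against mdx. Without the low-correlation arrays the EDL comparison held 1 member and the muscles 10 pairs, and without mdx EDL sample 1 they held 3 pairs. With 1 array left out the number ranged from 3 to 5 in mdx (950 to 1557 of all probe sets), 4 to 5 in mdx5cv (931 to 1393), 0 to 1 for mdx5cv against mdx, for the EDL and for the F test, 2 to 10 pairs in the muscles, and 1 to 7 in the diaphragm. The 5 in mdx came without mdx TA sample 1, and the 10 pairs and the member in the F test without C57BL10 TA sample 1. Signs turned for results that did not pass. Under quantile normalization these were Aldoa in mdx (-0.015), Aldoa (0.041), Eno3 (0.073), Pgam2 (0.071), Ldha (0.23) and Pkm (0.15) in mdx5cv, and Hk2 (-0.18) and Slc2a4 (-0.021) in TA, of which Ldha then passed. In TA the period block turned Hk2 (-0.11) and Slc2a4 (-0.76). That fit used the 30 arrays of known period, so C57BL10 TA sample 2, mdx TA sample 1 and mdx5cv TA sample 2 were not in it. Its TA values thus rest on 1 array a strain and cannot tell the block from the loss of these arrays. Leaving out the low-correlation arrays gave -0.18 for Hk2 and -0.62 for Slc2a4 in TA. Pfkm and Gys1 in mdx, both near 0 as reported, were 0.040 and 0.024 with the period block, 0.055 for each with the copies, 0.029 and 0.0092 without the EDL and 0.12 and 0.090 within the third period, where Pygm was 0.013. Without the 2 arrays of the highest top signal Aldoa and Eno3 in mdx were -0.14 and -0.011. With single arrays left out the values ranged from -0.18 to 0.70 for Hk2 and -0.62 to 1.29 for Slc2a4 in TA. In mdx they ranged from -0.14 to 0.079 for Pfkm, -0.087 to 0.31 for Aldoa and -0.14 to 0.029 for Gys1, and in mdx5cv from -0.23 to 0.010 for Pgam2, -0.14 to 0.020 for Ldha and -0.22 to 0.034 for Pkm. The cause of these changes was not tested. The labels do not say that sample numbers pair the arrays, and not every pair of groups deviated together: the correlation of deviations between groups of equal number had a median of 0.05 (-0.36 to 0.62 over 120 pairs of groups, 47 over 0.1), although 13 of 16 groups lay nearer their own number, and in the mutants the number partly follows the scanning period. With the sample number as a replicate block the counts were those reported, 3 in mdx and 4 in mdx5cv. With 1 or 2 arrays a group, only large changes within a muscle can pass.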
